A study of Homo sapiens with 6 samples.

Results

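Matrix metalloproteinases (MMPs) and the tissue inhibitors of metalloproteinases (TIMPs) were examined as 1 set of 10 genes: MMP1, MMP2, MMP3, MMP9, MMP10, MMP13, MMP14, TIMP1, TIMP2 and TIMP3. The members were the rows of the read count table whose gene name equals 1 of these symbols, 10 of 58735 genes in all. The RNA-Seq data came from the established cell line MCF10A, whose cells are human breast epithelium that is not malignant, grown in medium with horse serum, insulin, EGF, cholera toxin and hydrocortisone. Cells were transfected with siRNA against DAB2IP, which encodes a Ras GTPase-activating protein (siDAB2IP), or with a nontargeting siRNA pool (siControl), both with a cationic lipid reagent, and RNA was taken 48 h later. Each group held 3 libraries, numbered 1 to 3. A single siRNA reagent was used against DAB2IP, so effects of this reagent on other transcripts cannot be told apart from the loss of DAB2IP. The labels do not say whether the libraries of a group came from separate cultures, so p-values measure the spread between these libraries only.

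MMPs are zinc-dependent proteases that cleave collagens, laminins and other proteins of the extracellular matrix, and most are made as inactive proenzymes. MMP1 and MMP13 are collagenases, MMP3 and MMP10 are stromelysins, MMP2 and MMP9 are gelatinases, and MMP14 is anchored in the cell membrane. TIMPs bind the active site of MMPs and block it, and TIMP2 also forms the complex through which MMP14 cleaves and activates proMMP2. In the mammary gland these proteases and inhibitors take part in duct branching and in the remodelling of the basement membrane. Transcript levels do not show proenzyme activation or enzyme activity, which were not measured here.

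Assigned reads totalled 16353783 to 21916062 in the siControl libraries and 16669134 to 18085367 in the siDAB2IP libraries. DAB2IP itself was at 103, 94.2 and 77.4 CPM (read counts scaled to a common library size) in siControl and at 27.5, 25.6 and 22.4 CPM in siDAB2IP, a log2 fold change of -1.86 (SE 0.13, adjusted p = 9.71e-05). Of 15430 genes with enough counts to test, 6.55% rose and 7.65% fell with siDAB2IP, where rose and fell mean an edgeR quasi-likelihood adjusted p under 0.05. Basal epithelial markers were abundant, and their summed level was 7482 to 9182 CPM in siControl and 4389 to 5126 CPM in siDAB2IP, with KRT5, KRT14 and KRT17 lower among the 8 markers tested. KRT17 was called in only 1 of the 6 fits with a library left out, that without siDAB2IP replicate 3, with adjusted p of 0.0547 to 0.102 in the others. Of the leukocyte markers, PTPRC, CD68, CD3E and LYZ had at most 4 reads in any library, while CD14 had 611 to 1501 and CSF1R 123 to 289. Of the luminal markers, ESR1, PGR and KRT19 had at most 11 reads, while KRT8 had 2282 to 3100, KRT18 2084 to 3152 and GATA3 227 to 455. COL1A2, COL3A1, PDGFRA and LUM had at most 7 reads, while DCN had 2211 to 4681, and the fibroblast marker sum was 182 to 348 CPM in siControl and 187 to 294 CPM in siDAB2IP.

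Of the 10 members, 6 had enough counts to test: MMP2, MMP9, MMP14, TIMP1, TIMP2 and TIMP3. With siDAB2IP, MMP14 and MMP9 fell, and no member rose. The 2 of 6 members that fell stand beside 7.65% of all genes tested, and the 0 that rose beside 6.55%. At an unadjusted p under 0.05, 1 member (TIMP3) was higher and 2 were lower, beside 14.5% and 15.5% of all genes tested. DESeq2 called the same 3 genes, 1 rise and 2 falls, beside 7.37% rises and 9.23% falls over all genes, and limma on FPKM called no rise. TIMP3 was higher in every siDAB2IP library and came close to the threshold, and its call depended on the fit. With replicate number in the edgeR fit as a block, TIMP3 rose (adjusted p = 0.0212), and MMP14 and MMP9 fell as before. MMP2, TIMP1 and TIMP2 did not pass the test. MMP1, MMP3, MMP10 and MMP13 had at most 7 counts in any library and could not be tested. The median log2 fold change over the 6 tested members was -0.06, against 0.01 over all genes tested. In bulk libraries, fewer cells that make a transcript and less of that transcript per cell cannot be told apart.

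The level of each member was compared with that of the others as FPKM, the authors' values scaled to gene length and depth. For the members this length was that of all annotated exonic bases, which can exceed that of the transcript made. In siControl, TIMP1 stood highest with 433 to 550 FPKM, followed by MMP14 with 83.3 to 101 FPKM. TIMP3 had 43.2 to 54.0 FPKM and TIMP2 had 35.3 to 42.2 FPKM. MMP2 had 5.29 to 8.02 FPKM and MMP9 had 0.448 to 0.612 FPKM in siControl. These 6 genes kept the same order in every siControl library with no overlap between neighbours, whereas the ranges of MMP10, MMP13, MMP3 and MMP1, each at or under 0.165 FPKM, overlapped. In siDAB2IP the ranges of MMP14 (60.9 to 70.5 FPKM) and TIMP3 (58.6 to 76.4 FPKM) overlapped, so these neighbours no longer had an order. MMP14 thus made up most of the MMP transcript measured among the members, 92.9% ± 2.12 (SD, n = 3) of the summed FPKM of the 7 MMPs in siControl and 89.1% ± 4.32 (SD, n = 3) in siDAB2IP.

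**Figure D1:**
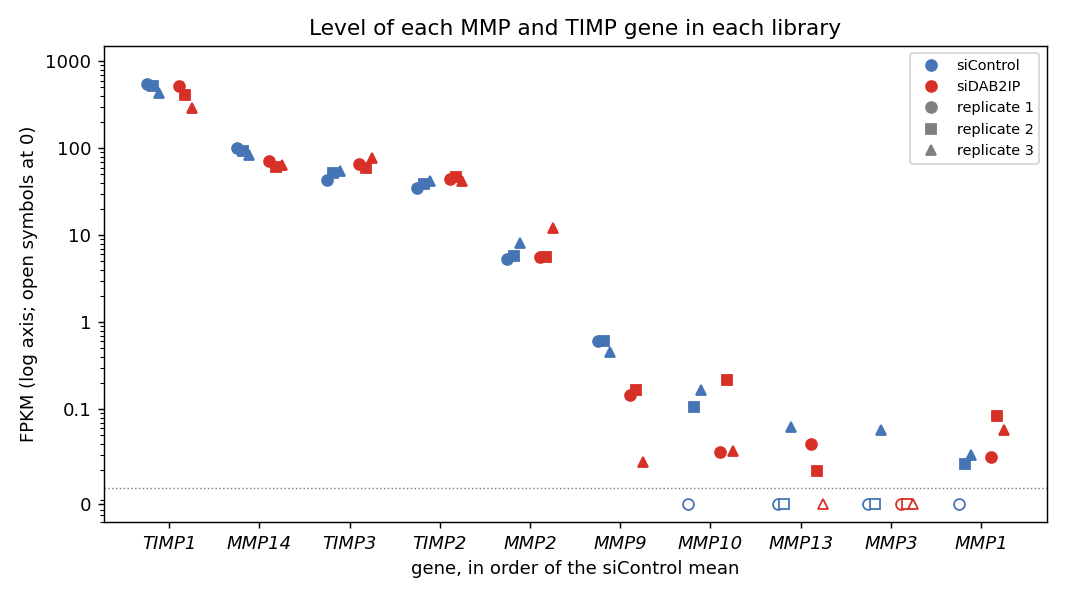
FPKM of the 10 members on a log axis, with 1 point per library and open symbols where the value is 0. TIMP1 and MMP14 lie highest in siControl, and the 4 genes MMP1, MMP3, MMP10 and MMP13 lie near 0 in both groups.

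MMP14, the membrane-bound collagenase and activator of proMMP2, lies on chromosome 14 (GRCh38, 22836557 to 22849027, plus strand) and its exons overlap no other annotated gene. It had 7319, 9092 and 6400 reads in siControl and 5628, 4968 and 5033 reads in siDAB2IP. This corresponds to 456, 422 and 376 CPM in siControl and 317, 275 and 292 CPM in siDAB2IP. All siDAB2IP libraries lay below all siControl libraries, a separation that 3 of the 6 tested members and 35.9% of all genes tested showed in one direction or the other, 18.3% downward. MMP14 fell by 0.50 on the log2 scale (SE 0.11, 95% interval -0.76 to -0.25, adjusted p = 0.0179), from 418 ± 40.3 to 295 ± 21.3 CPM (SD, n = 3 each). The exact two-sided permutation test over the libraries gave p = 0.1, the smallest value that 3 against 3 allows. Without siControl replicate 1, siControl replicate 2 or siDAB2IP replicate 2, the adjusted p of MMP14 was 0.0566, 0.0718 or 0.0589, with the log2 fold change between -0.59 and -0.46 in all 6 fits of this kind.

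MMP9, the larger gelatinase, lies on chromosome 20 (46008908 to 46016561, plus strand). It was a rare transcript, with 23, 31 and 18 reads in siControl and 6, 7 and 1 reads in siDAB2IP. Scaled to depth, MMP9 was at 1.43, 1.44 and 1.06 CPM in siControl and at 0.338, 0.388 and 0.0580 CPM in siDAB2IP. The groups did not overlap, and the siDAB2IP library with a single read was replicate 3. MMP9 fell by 2.29 on the log2 scale (SE 0.51, 95% interval -3.41 to -1.16, adjusted p = 0.0168), and the exact two-sided permutation p was again 0.1. Its adjusted p was 0.0575 without siControl replicate 1 and 0.0754 without siControl replicate 2. Of the 2336 exonic bases of MMP9, 430 are shared with the antisense gene SLC12A5-AS1, which had 3 reads in siDAB2IP replicate 2 and 0 in the other libraries.

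**Figure D2:**
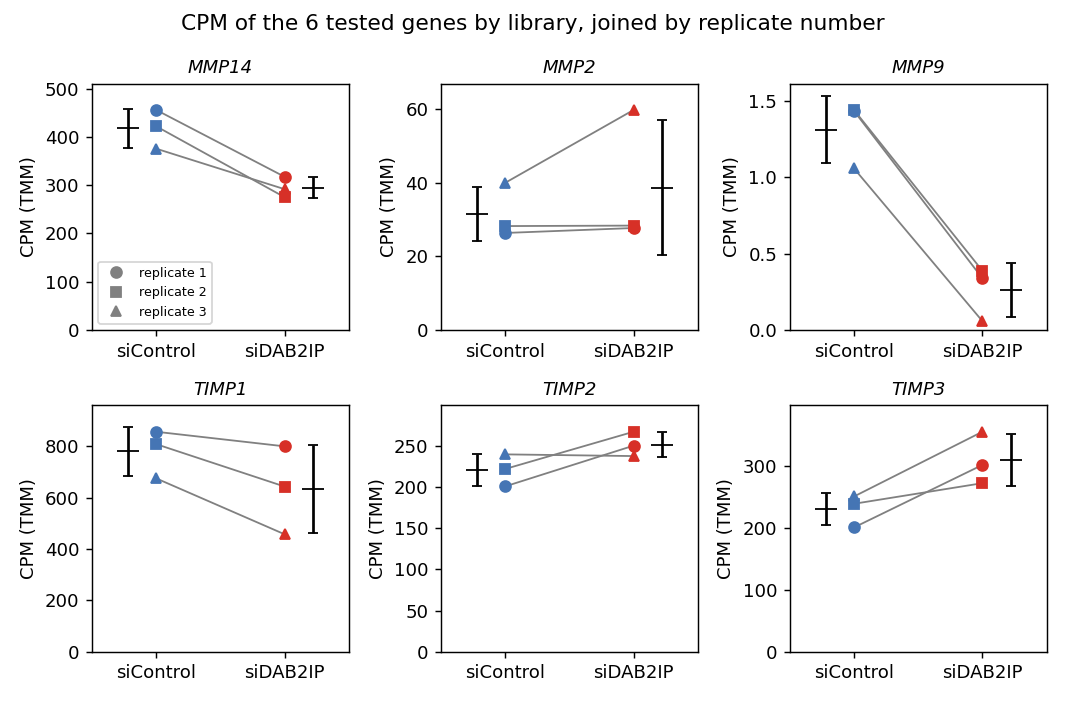
CPM of the 6 tested members in each library on linear axes, with lines joining libraries of the same replicate number. MMP14 and MMP9 go down in all 3 pairs, TIMP3 goes up in all 3, and the siControl and siDAB2IP points of MMP2, TIMP1 and TIMP2 overlap.

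MMP2, the other gelatinase and the main proenzyme cut by MMP14, lies on chromosome 16 (55389700 to 55506691, plus strand). It had 26.4, 28.2 and 39.98 CPM in siControl and 27.7, 28.4 and 59.8 CPM in siDAB2IP. Replicate 3 was the highest library in both groups, and the ranges overlapped. The log2 fold change of MMP2 was 0.29 (SE 0.28, 95% interval -0.34 to 0.92, adjusted p = 0.537). Without siDAB2IP replicate 3 it was -0.17. The log2 ratios of the same-numbered pairs were 0.07, 0.007 and 0.58, so most of the MMP2 difference came from the pair numbered 3.

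The collagenases MMP1 and MMP13 and the stromelysins MMP3 and MMP10 sit together in a run of 9 MMP genes on chromosome 11 (102520508 to 102955734, all on the minus strand), which spans 435 kb. MMP1 had 0, 1 and 1 reads in siControl and 1, 3 and 2 reads in siDAB2IP. MMP3 had 0, 0 and 2 reads in siControl and 0 in each siDAB2IP library. MMP10 had 0, 4 and 5 reads in siControl and 1, 7 and 1 reads in siDAB2IP, and MMP13 had 0, 0 and 3 reads against 2, 1 and 0. A count of 0 allows a level of up to 0.139 to 0.187 CPM at the depth of these libraries, counting error only. MMP20, MMP27, MMP8 and MMP12 had no read in any library, so the 8 genes of the run other than MMP7 held 16 reads in the siControl libraries together and 18 in the siDAB2IP libraries. With no filter on low counts, the edgeR adjusted p was 0.655 for MMP1 and 0.579 for MMP3, and 1.00 for MMP10 and MMP13, so a difference was not detectable at this depth. MMP7, matrilysin, at the end of the run, was the exception in level: it had 40, 40 and 26 reads in siControl and 13, 15 and 4 reads in siDAB2IP. MMP7 fell by 1.69 on the log2 scale (SE 0.43, adjusted p = 0.0297). Its adjusted p was 0.0999, 0.0902, 0.0545 and 0.0550 without siControl replicate 1, 2 or 3 or siDAB2IP replicate 1.

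**Figure D3:**
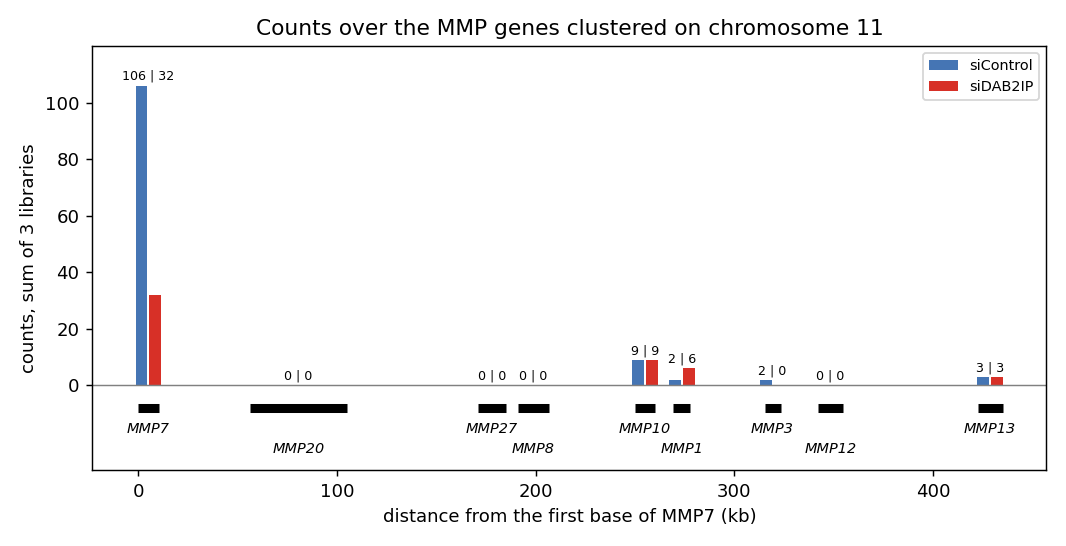
Summed reads of the 9 MMP genes of the chromosome 11 run in the 3 libraries of each group, plotted by distance in kb from the first base of MMP7. MMP7 holds 106 reads in siControl and 32 in siDAB2IP, and the other 8 genes hold 16 and 18 in total.

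Promoter sequence of 4 members (MMP10, MMP14, TIMP1 and TIMP3) and of MMP7 and MMP11 was read, as the 250 bases before the transcription start in RefSeq (GRCh38.p14). Windows of MMP14 and TIMP3 are shown because these members stood apart between the groups with ample reads. Those of MMP10 and MMP7 are shown because both genes lie in the same run of MMP genes and differed in level. Sequences run 5′ to 3′ on the gene's strand, up to the base before the start. Capitals mark 1 of 3 motifs, each searched on both strands. The AP-1 motif was spelled TGANTCA. The letters TATAAA stood for the TATA motif, and GGGCGG for the GC box, which reads as its complement on the other strand.
MMP14 (chr14:22836335-22836584, plus strand): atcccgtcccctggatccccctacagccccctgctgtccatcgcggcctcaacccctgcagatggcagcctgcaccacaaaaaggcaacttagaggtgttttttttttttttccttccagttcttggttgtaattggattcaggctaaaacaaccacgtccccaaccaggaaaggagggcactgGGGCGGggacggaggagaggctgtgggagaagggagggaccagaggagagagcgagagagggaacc
TIMP3 (chr22:32801455-32801704, plus strand): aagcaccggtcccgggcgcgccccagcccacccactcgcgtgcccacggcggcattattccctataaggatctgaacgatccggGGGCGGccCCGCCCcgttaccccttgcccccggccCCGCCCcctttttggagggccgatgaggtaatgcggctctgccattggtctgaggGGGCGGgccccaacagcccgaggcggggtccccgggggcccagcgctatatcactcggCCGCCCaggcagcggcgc
MMP10 (chr11:102780629-102780878, minus strand): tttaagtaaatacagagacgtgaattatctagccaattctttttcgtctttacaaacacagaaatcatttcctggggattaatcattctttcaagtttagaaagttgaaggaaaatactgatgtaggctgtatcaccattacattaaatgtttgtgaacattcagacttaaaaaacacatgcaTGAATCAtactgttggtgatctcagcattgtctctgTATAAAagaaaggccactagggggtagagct
MMP7 (chr11:102530748-102530997, minus strand): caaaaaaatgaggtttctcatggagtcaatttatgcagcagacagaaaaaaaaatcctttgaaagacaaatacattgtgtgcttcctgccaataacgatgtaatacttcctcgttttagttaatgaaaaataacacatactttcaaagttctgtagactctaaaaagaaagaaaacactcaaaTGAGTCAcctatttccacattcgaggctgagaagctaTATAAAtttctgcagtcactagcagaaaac
MMP10 and MMP7 each hold an AP-1 motif 67 to 61 bases before the start, and a TATA motif 31 to 26 (MMP10) or 30 to 25 (MMP7) bases before it. The AP-1 motif was found in 6.57% and the TATA motif in 10.7% of all 35116 RefSeq windows of this length. The MMP14 window holds 1 GC box, 66 to 61 bases before the start, the TIMP3 window holds 5, the TIMP1 window 2 and the MMP11 window 3, and 42.6% of all windows held at least 1. None of these 4 windows holds the AP-1 or the TATA motif. A match describes the letters of the window and not a bound site.

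TIMP3, the inhibitor that stays bound to the matrix and also blocks ADAM proteases, lies on chromosome 22 (32801701 to 32863043, plus strand). It had 201, 239 and 251 CPM in siControl and 302, 273 and 356 CPM in siDAB2IP. Every siDAB2IP library lay above every siControl library, as it did for 17.6% of all genes tested. The log2 fold change was 0.43 (SE 0.13, 95% interval 0.14 to 0.72, adjusted p = 0.0542), and the exact two-sided permutation p was 0.1. With replicate number added to the fit as a block, TIMP3 reached an adjusted p of 0.0212, so that 1 of the 6 tested members rose, beside 9.59% of all genes in that fit. It was 0.0204 with DESeq2, 0.0451 with scaling to library size only, 0.0126 with no filter on low counts and 0.0465 without siDAB2IP replicate 2. TIMP3 lies inside SYN3, a gene on the opposite strand with which it shares no exonic base. SYN3 had 185, 165 and 156 reads in siControl and 72, 61 and 21 reads in siDAB2IP (log2 fold change -1.70, adjusted p = 0.0128), the opposite direction to TIMP3.

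TIMP1, a secreted inhibitor of most soluble MMPs, lies on the X chromosome (47582313 to 47586789, plus strand). It had 856, 808 and 674 CPM in siControl and 799, 643 and 457 CPM in siDAB2IP. The groups overlapped, although the siDAB2IP library was the lower in each of the 3 same-numbered pairs, by log2 ratios of -0.10, -0.33 and -0.56. The log2 fold change of TIMP1 was -0.30 (SE 0.19, 95% interval -0.72 to 0.12, adjusted p = 0.322), and its adjusted p was 0.0688 under the block. TIMP2, on chromosome 17 (78852977 to 78925387, minus strand), had 201, 222 and 240 CPM in siControl and 251, 268 and 238 CPM in siDAB2IP. TIMP2 was higher in the pairs numbered 1 and 2 and not in the pair numbered 3, with a log2 fold change of 0.19 (SE 0.11, 95% interval -0.05 to 0.42, adjusted p = 0.265). For TIMP1, TIMP2 and MMP2, changes inside these intervals remain possible. Of the 5633 exonic bases of TIMP2, 565 are shared with other annotated genes, whose reads were at most 6 in any library.

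**Figure D4:**
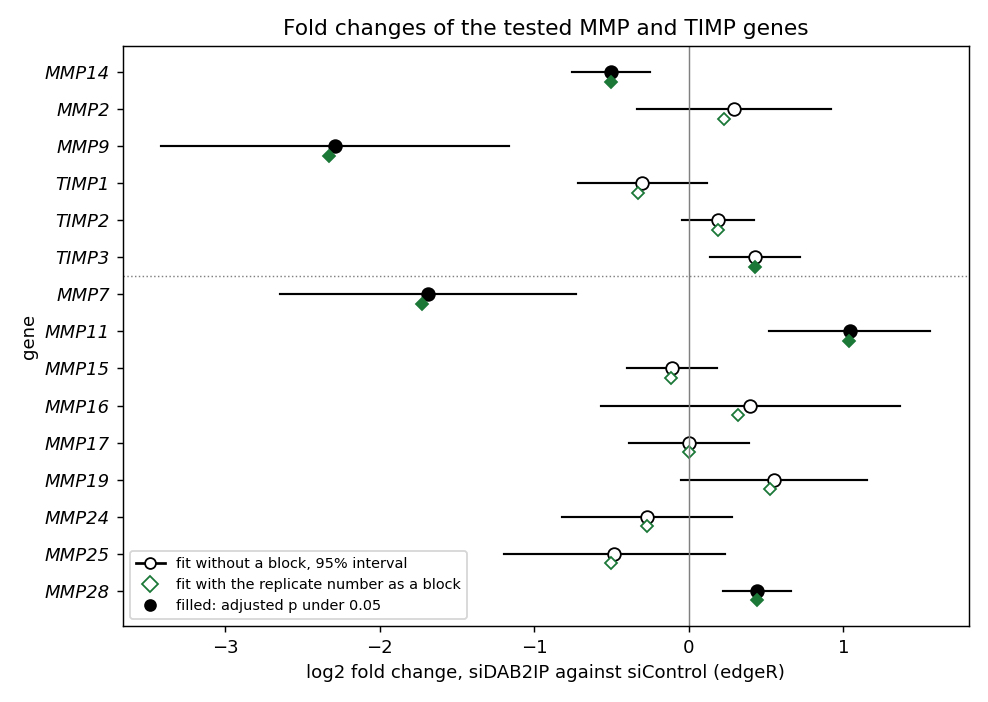
Log2 fold changes (siDAB2IP minus siControl) of the tested MMP and TIMP genes with 95% intervals from edgeR. MMP9 (-2.29), MMP7 (-1.69) and MMP14 (-0.50) fell, MMP11 (1.04) and MMP28 (0.44) rose, and TIMP3 (0.43) lay at an adjusted p of 0.0542.

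Ratios between members within a library were examined as a description, without a test. MMP14 over TIMP3 in FPKM was 2.34, 1.82 and 1.54 in siControl and 1.08, 1.04 and 0.845 in siDAB2IP. MMP14 over TIMP2, the inhibitor with which it binds proMMP2, was 2.86, 2.40 and 1.98 in siControl and 1.60, 1.30 and 1.55 in siDAB2IP. Neither of these ratios overlapped between the groups. MMP14 over TIMP3 had to separate, because MMP14 lay lower and TIMP3 higher in every siDAB2IP library. The share of gene pairs whose ratios separate was not computed. TIMP1 over TIMP3 was 12.7, 10.1 and 8.02 in siControl and 7.90, 7.04 and 3.83 in siDAB2IP, with only a small gap between the groups. MMP14 over MMP2 overlapped, with 19.1, 16.5 and 10.4 in siControl and 12.7, 10.7 and 5.39 in siDAB2IP. So did TIMP1 over TIMP2, with 15.6, 13.3 and 10.3 in siControl and 11.7, 8.78 and 7.02 in siDAB2IP. The summed FPKM of the 7 MMPs was 107, 100.4 and 92.1 in siControl and 76.3, 67.1 and 76.7 in siDAB2IP, and most of it was MMP14. The summed FPKM of the 3 TIMPs overlapped, with 628, 612 and 529 in siControl and 623, 518 and 411 in siDAB2IP. The ratio of the TIMP sum to the sum of the 7 member MMPs was 5.87, 6.09 and 5.75 in siControl. It was 8.17, 7.72 and 5.36 in siDAB2IP, so that replicates 1 and 2 lay above the siControl range and replicate 3 below it.

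Expression profiles over the 6 libraries were compared with those of MMP9 and TIMP3, the MMP and the TIMP with the smallest p. Likeness was the root mean square difference of log2 CPM, each gene centred on its own siControl mean. The log2 CPM held a prior count of 2, added before the log. Only genes with a mean of at least 10 CPM were compared. The genes nearest to MMP9 were EGR1, an immediate early transcription factor (0.164), SCARA3 (0.194) and SGPP1 (0.206). The genes nearest to TIMP3 were SPATA33 (0.0395), SLC44A5, a choline transporter-like gene (0.0435), and SLC37A3 (0.0450). MMP9 rests on few reads, so its own profile is imprecise, and the prior count makes its differences between libraries smaller. Its nearest genes match that reduced profile.

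Besides the members, 17 other MMP and TIMP genes are in the table, and 9 of them could be tested. MMP11 and MMP28 rose, MMP7 fell and 6 were not called, beside 6.55% rising and 7.65% falling among all genes. Across all 23 MMP genes, 12 were tested, 2 rose and 3 fell. MMP11, stromelysin-3, had 34, 51 and 33 reads in siControl and 82, 91 and 62 reads in siDAB2IP, a log2 fold change of 1.04 (SE 0.23, adjusted p = 0.0179). MMP28, epilysin, a secreted enzyme of epithelia, had 215, 218 and 193 CPM in siControl and 298, 275 and 277 CPM in siDAB2IP (log2 fold change 0.44, SE 0.10, adjusted p = 0.0180). Per length, the mean of MMP28 was 72.3 FPKM in siControl and 98.0 FPKM in siDAB2IP, next to 65.3 FPKM for MMP14 in siDAB2IP. All siDAB2IP libraries lay above all siControl libraries for both genes. With 1 library left out, MMP11 passed only without siDAB2IP replicate 3, with adjusted p of 0.0505 to 0.0688 in the other 5. MMP28 passed only without siDAB2IP replicate 2 or 3, with 0.0542, 0.0725, 0.0817 and 0.0663 without siControl replicate 1, 2 or 3 or siDAB2IP replicate 1. MMP15, MMP16, MMP17, MMP19, MMP24 and MMP25 were not called, with log2 fold changes from -0.48 (MMP25) to 0.55 (MMP19).

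Genes that activate MMPs, hold them at the cell surface or inhibit serine proteases upstream of them formed a list of 40, with 34 tested. This list and those below were chosen with earlier results of these data known, so their shares are a description. Of these, 8 rose and 0 fell, beside 6.55% and 7.65% of all genes, and the median log2 fold change was 0.20. PLAUR, the receptor of urokinase, had 29.2, 36.5 and 40.7 CPM in siControl and 76.1, 84.2 and 73.6 CPM in siDAB2IP (log2 fold change 1.14, SE 0.13, adjusted p = 0.00109). PLAU, urokinase itself, rose by a log2 fold change of 0.74 (SE 0.10, adjusted p = 0.00269). SERPINB2, an inhibitor of urokinase, rose by 1.30 on the log2 scale (SE 0.25, adjusted p = 0.00956). CTSD, CTSK, CLDN1 and PCSK6 also rose. PLAUR, PLAU and SERPINB2 passed whichever of the 6 libraries was left out, while 3 genes of the list rose without siControl replicate 1 or 2 and 5 without siControl replicate 3 or siDAB2IP replicate 1. At an unadjusted p under 0.05, 3 genes of the list were lower (3 of 34, beside 15.5% of all genes), and 2 fell with DESeq2. With the block 3 fell (PLAT, LCN2 and CD9), beside 11.4% of all genes, and 11 rose, beside 9.59%. LCN2, lipocalin-2, which binds MMP9, had 23.0, 16.7 and 8.04 CPM in siControl and 15.2, 13.1 and 3.48 CPM in siDAB2IP (adjusted p = 0.450, and 0.0262 with the block). RECK is a membrane inhibitor of MMP9 and MMP14, FURIN activates MMP14, and BSG induces MMPs. None of these 3 passed the test, with log2 fold changes of -0.40, 0.28 and 0.03 and adjusted p of 0.185, 0.0830 and 0.912. With the block the adjusted p of FURIN was 0.0497, which passed.

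AP-1 and ETS transcription factors, whose motifs occur in many MMP promoters, formed a list of 22, with 20 tested. FOSL1 (log2 fold change 0.83, adjusted p = 0.00636) and ETV4 (0.75, adjusted p = 0.0340) rose, and EHF, ETS2, ETS1 and FOS fell, 2 and 4 of 20 beside 6.55% and 7.65% of all genes. With the block 3 rose and 6 fell, beside 9.59% and 11.4%, the additional calls being ELK3 (log2 fold change 0.30, adjusted p = 0.0351), FOSL2 (-0.38, adjusted p = 0.0165) and ELK1 (-0.38, adjusted p = 0.0490). EHF, an epithelial ETS factor, fell by 1.35 on the log2 scale (SE 0.12, adjusted p = 0.000227), from 79.4, 78.9 and 62.1 CPM to 29.2, 28.7 and 28.4 CPM. ETS2 fell by 1.26 (SE 0.22), FOS by 1.37 (SE 0.28) and ETS1 by 0.70 (SE 0.14) on the log2 scale. FOSL1 and the 4 factors that fell were called whichever of the 6 libraries was left out. ETV4 was called only without siDAB2IP replicate 3, with adjusted p of 0.0648 to 0.134 in the other 5 fits of this kind.

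Matrix proteins that MMPs cleave formed a list of 33, with 25 tested. Of these, 7 rose and 3 fell, beside 6.55% and 7.65% of all genes. LAMB3, the beta chain of the basement membrane laminin cleaved by MMP14 and MMP2, rose by a log2 fold change of 1.02 (SE 0.12, adjusted p = 0.00128). AGRN and HSPG2, the basement membrane proteoglycans agrin and perlecan, rose by 0.64 each on the log2 scale. COL1A1, SPARC and BCAN also rose. COL4A1 fell by 0.78 (SE 0.22, adjusted p = 0.0428) and COL4A5 and LAMB1 also fell. The count that rose was 3 without siControl replicate 1 and 1 without siControl replicate 2, and the count that fell was 0 without siControl replicate 2 or 3 or siDAB2IP replicate 2. With the block, 8 rose and 5 fell, beside 9.59% and 11.4% of all genes.

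ADAM and ADAMTS proteases, relatives of the MMPs, several of which TIMP3 blocks, formed a list of 12, with 10 tested. With edgeR, 0 were called in either direction, beside 6.55% rising and 7.65% falling among all genes. At an unadjusted p under 0.05, 1 was higher and 2 were lower, beside 14.5% and 15.5% of all genes tested. DESeq2 called 1 rise and 0 falls, limma on FPKM called 0, and with the block ADAM12 and ADAM17 fell. ADAM17, the sheddase of TNF and of EGFR ligands, had 122, 119 and 109 CPM in siControl and 98.2, 104 and 60.2 CPM in siDAB2IP (adjusted p = 0.146, and 0.0357 with the block). Without siDAB2IP replicate 3, 1 gene of the list rose and 1 fell.

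**Figure D5:**
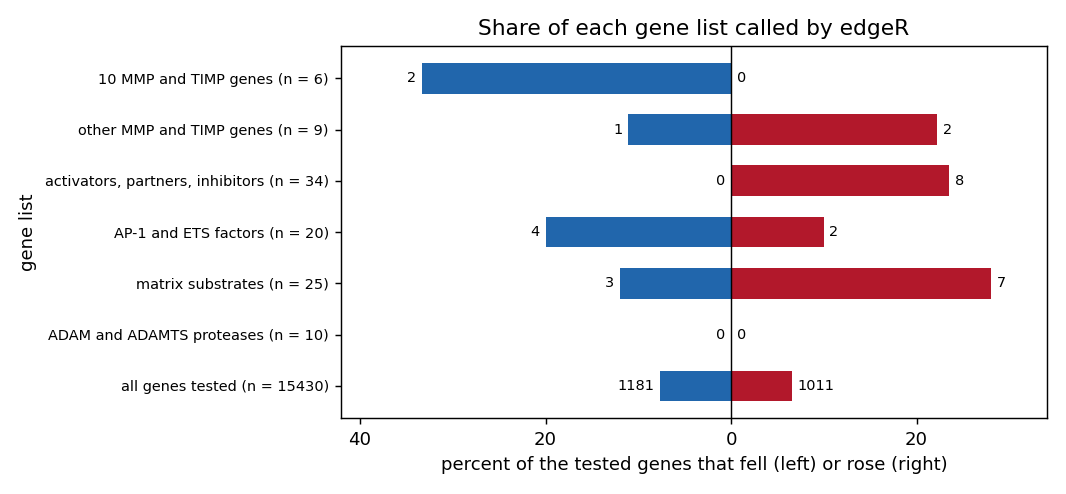
Percent of tested genes that rose or fell with siDAB2IP (edgeR adjusted p under 0.05) in the members and in the other gene lists, beside all genes tested. Among all genes 6.55% rose and 7.65% fell. Of 34 activators, binding partners and inhibitors, 8 rose and none fell, though 3 fell with the replicate block. Members and lists were chosen with earlier results of these data known.

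Markers of other cells were set beside these values. Of the luminal markers, 4 were tested and FOXA1 was called higher, while GATA3 lay at -0.45 on the log2 scale (adjusted p = 0.0616, and 0.0282 with the block), with a summed level of 303 to 318 CPM in siControl and 277 to 364 CPM in siDAB2IP. FOXA1 was not called without siControl replicate 1 or 3 or siDAB2IP replicate 2 (adjusted p = 0.0781, 0.0804 and 0.0802). Of the endothelial markers, 5 were tested and KDR was called lower, with a summed level of 23.7 to 33.99 CPM in siControl and 15.8 to 17.3 CPM in siDAB2IP. KDR was not called without siControl replicate 2 or 3 or siDAB2IP replicate 1 or 2 (adjusted p = 0.122, 0.171, 0.125 and 0.112), and its log2 fold change was -0.67 without siControl replicate 3. The leukocyte marker sum was 44.0 to 79.3 CPM in siControl and 67.8 to 90.1 CPM in siDAB2IP, with CSF1R called higher, and the fibroblast marker COL1A1 was called higher. CSF1R was not called without siControl replicate 2 or 3 (adjusted p = 0.0738 and 0.0664), nor COL1A1 without siControl replicate 1 or 2 (adjusted p = 0.0621 and 0.0670). The basal keratin levels moved with the group in the same direction as MMP14 and MMP9, and the part of any of these markers in the member results was not tested.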

How the data were processed

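RNA-Seq reads of the 6 libraries were aligned with STAR 2.6.1d to hg38 and counted per gene with featureCounts 1.5.0-p3, as the submitters' processing notes name these tools; whether counting used strand is not given in the sources used here. The deposited table holds raw read counts per gene and the authors' FPKM values. The depth scaling of these FPKM matched DESeq2 size factors and was 98.9% to 104.7% of the library totals. Counts were tested in R 4.3.3 with edgeR 4.0.16 (filterByExpr, TMM scaling, quasi-likelihood test), and p-values were Benjamini-Hochberg adjusted over the 15430 genes kept. CPM were TMM-scaled, and FPKM served for levels between genes and in limma 3.58.1 as an alternative. DESeq2 1.42.0 was another. The exact permutation test used TMM CPM. Neither it nor the main edgeR fit used replicate number. Same-numbered libraries deviated together (correlations 0.155 to 0.265, against -0.278 to 0.02 between different numbers), so the numbers were taken to pair them, and the block was fitted as an alternative. Named genes were the members, called genes of each list (at most 8 by p), tested MMP and TIMP genes, overlapping genes and nearest profiles; RECK, BSG, FURIN, LCN2, PLAT, CD9, ELK1, ELK3, FOSL2, ADAM12, ADAM17 and the marker genes with their read ranges were chosen after their values were seen. Members and lists were chosen with earlier results of these data known. The fits were tested on simulated data. Positions are from GENCODE 29, whose coordinates equal those in the table for all 58735 genes. Intervals cover 95%. Some genes of the lists are counted but not reported by name here.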

Additional observations from a re-analysis of the deposited data

How the results depend on the processing

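Depth limits MMP1, MMP3, MMP10, MMP13 and, with 6, 7 and 1 reads in siDAB2IP, MMP9. TIMP3 rose with DESeq2 (log2 fold change 0.43), library size scaling (0.47), no filter on low counts (0.42), the replicate block (0.43) and without the third replicate of both groups (0.38, chosen after seeing the data), so 1 member rose in each of these fits. It was 0.32 to 0.51 with 1 library left out, when 0 to 1 members rose and 0 to 2 fell. Then MMP9 ranged from -2.67 to -1.83 and MMP14 from -0.59 to -0.46. Only 1 member, MMP14, fell with at least 10 counts in every library and with limma on log2(FPKM + 1) or log2(FPKM + 0.1), where MMP9 was filtered out, and 0 with limma over all genes with a count, where MMP9 was at -0.49 (adjusted p = 0.0595) and MMP14 at -0.50 (adjusted p = 0.0755). MMP2 ranged from -0.17 (without siDAB2IP replicate 3) to 0.49 with 1 library left out.

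Over all genes 1011 rose and 1181 fell, against 659 and 758 with limma and a pseudocount of 0.1, 176 and 202 with limma over all genes with a count, and 264 to 1172 and 459 to 1352 with 1 library left out. Of the other MMP and TIMP genes, 1 rose with limma at either pseudocount and 0 over all genes with a count, 0 fell with limma or with at least 10 counts, and 0 to 2 rose and 0 to 1 fell with 1 library left out. Of activators, partners and inhibitors, 2 rose with limma over all genes with a count, 2 fell with DESeq2, 3 with no filter, 3 with the replicate block and 1 without the third replicates, and 3 to 11 rose and 0 to 1 fell with 1 library left out. Of AP-1 and ETS factors, 1 rose with limma at either pseudocount, 0 rose and 1 fell over all genes with a count, and 1 to 2 rose with 1 library left out. Of matrix substrates, 2 rose and 0 fell with limma over all genes with a count, 5 fell with no filter or the replicate block, and 1 to 7 rose and 0 to 4 fell with 1 library left out. Of the ADAM and ADAMTS genes, 1 rose with DESeq2, 1 rose and 2 fell with no filter, 2 fell with the block, 2 rose and 1 fell without the third replicates, and 0 to 1 rose and fell with 1 library left out.

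MMP17 was at 0.00 and turned to -0.0016 with DESeq2, -0.010 with no filter, -0.012 with at least 10 counts, -0.0016 with the block, -0.0042 and -0.0069 with limma at pseudocounts of 1 and 0.1, -0.0042 over all genes with a count, -0.12 without siControl replicate 1 and -0.15 without siDAB2IP replicate 2 (-0.15 to 0.12 with 1 library left out). MMP15 was -0.17 to 0.0028 (without siDAB2IP replicate 1) and MMP16 -0.21 (without siDAB2IP replicate 3) to 0.72. The cause of these moves was not tested. The block changed no other member call.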
